A study of Homo sapiens with 12 samples.

Results

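The eHAP1 SCC4 KO sample held 153 cells in 2 batches. The 77 cells of batch 1 were divided by the transcript of MAU2 (ENSG00000129933), the gene also called SCC4 that the knockout targeted. No MAU2 UMI (unique molecular identifier, a tag that marks 1 captured transcript) was counted in 44 of the 77 cells, and at least 1 was counted in the other 33 cells. These 77 cells were part of 301 eHAP1 cells and of 403 wells in the series. The members were chosen by their measured MAU2 UMIs, so MAU2 itself is given as a description with no test. The question was whether the remaining MAU2 transcript went with any other difference in expression or only with the number of UMIs of a cell.

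eHAP1 is a haploid human cell line. WT cells were unedited, and SCC4 KO cells came from clonally expanded cells that had received Cas9 protein with 1 guide RNA, so that all KO cells share whatever is particular to the clone. Both genotypes were grown in the same medium with 10-Deacetylbaccatin-III during subcloning to keep them haploid, and live cells with the DNA content and size of G1 phase were sorted into wells. They were profiled by LAST-seq, which amplifies RNA linearly from the poly-A end without prior reverse transcription, with up to 80 barcoded wells pooled per batch.

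MAU2 and its partner NIPBL form the complex that loads cohesin onto chromatin. Cohesin is a ring of SMC1A, SMC3, RAD21 and a STAG subunit that holds chromatin loops, WAPL and PDS5 proteins release it, and CTCF stops it at loop borders. An edit that shifts the reading frame removes the protein, whereas the gene is still transcribed, and such transcripts can be degraded by nonsense-mediated decay.

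The guide is shown because its place in the gene decides what a MAU2 UMI can tell. Its target on the plus strand, with the PAM in capitals, lies at chr19:19338850-19338869 of GRCh38, in coding exon 5 of the 19 exons of MAU2 (chr19:19320829-19358754, plus strand).
SCC4 guide target: gcacacgcttgagaaggaccTGG
Of the coding sequence, 25.1% lies before the target, and 4333 bases of the transcript follow it. UMIs came from the poly-A end of transcripts, so a MAU2 UMI showed that a transcript was present and did not show whether it carried the edit. The number of MAU2 UMIs is therefore no check of the knockout in a single cell.

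MAU2 transcript remained in KO cells at a lower level than in WT cells. In batch 1, KO cells held 59 MAU2 UMIs in all, or 9.17 per 1000000 UMIs, and WT cells held 44.2. In batch 2, the corresponding levels were 14.5 and 41.2. Cells without MAU2 UMIs were 57.1% of KO batch 1 (exact binomial 95% interval 45.4% to 68.4%, which covers counting error only, n = 77 cells), against 7.89% of KO batch 2 (6 of 76), 2.74% of WT batch 1 (2 of 73) and 5.33% of WT batch 2 (4 of 75). KO cells of batch 1 were shallower than those of batch 2, with 44979 to 174807 UMIs per cell (median 81789) against 62926 to 320432 (median 152433). Each cell was therefore thinned to 60000 UMIs by random draws without replacement, leaving out shallower cells. At this equal depth, 65.7% of KO batch 1 cells (46 of 70; 53.4% to 76.7%) and 47.4% of KO batch 2 cells (36 of 76; 35.8% to 59.2%) were without MAU2 UMIs, beside 9.09% (6 of 66) and 11.0% (8 of 73) of the WT cells. The shares of the KO batches lay closer together at equal depth, and both were above those of the WT batches. The batches shared 75 well barcodes, which are those of the plate design, and no 2 cells had identical values.

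**Figure D1:**
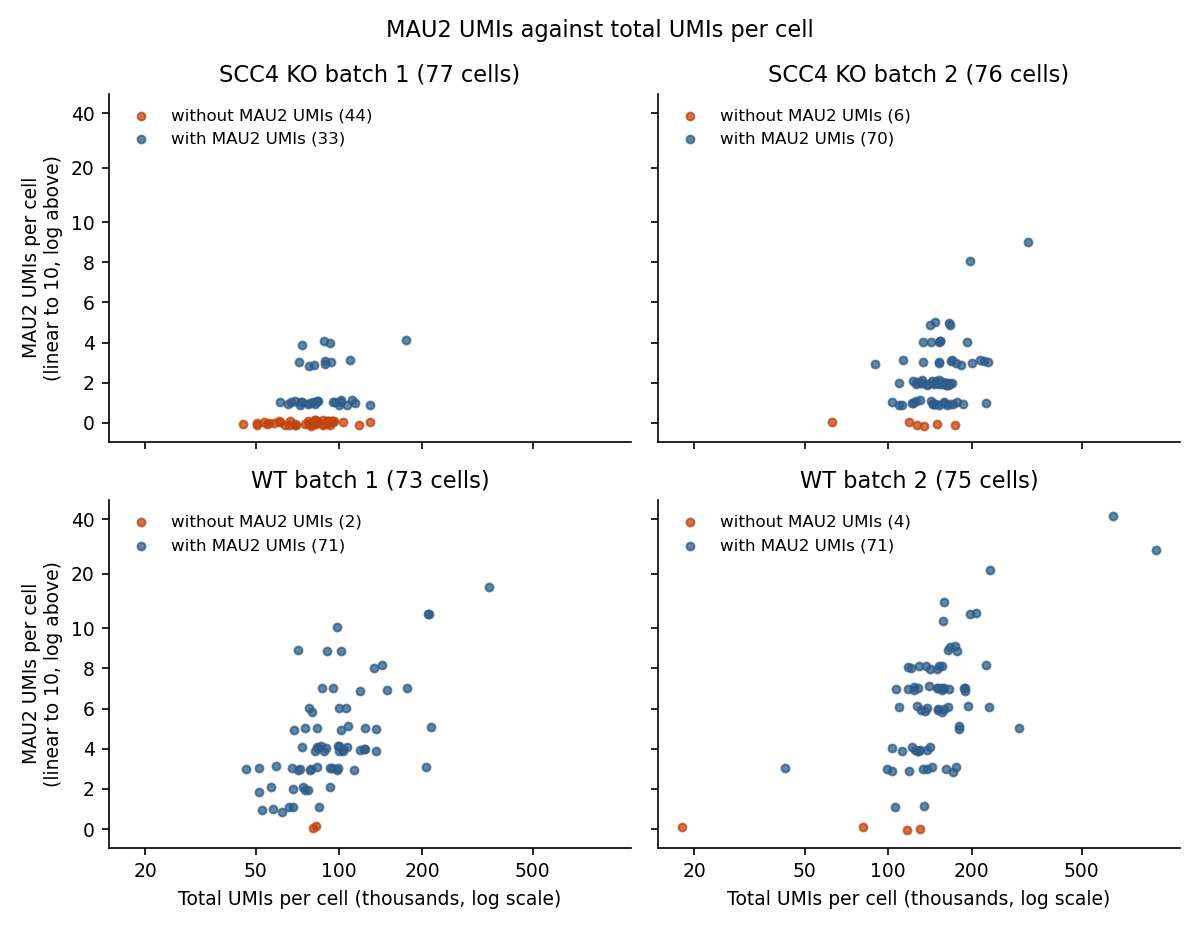
Each point is a cell, with its total UMIs (log scale) on the x axis and its MAU2 UMIs on the y axis (linear to 10, log above, points spread slightly up and down), for each genotype and batch. Cells without (orange) and with (blue) MAU2 UMIs overlapped in their totals in KO batch 1, but the shallowest cells were all without MAU2. No cell of that batch held exactly 2.

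Among the 33 cells with MAU2 UMIs, 22 held 1, 7 held 3 and 4 held 4. No cell held exactly 2. The value 2 was also missing for most other genes: of 6458 genes with at least 5 cells at 1 and at 3 in this batch, 63.5% had no cell at 2. The deposited values were therefore read as adjusted between batches by ComBat-seq, which the study's methods name. That method leaves 0 and 1 as they are, so that the division at 1 UMI would not depend on it, whereas values of 3 or 4 need not be captured transcripts one for one.

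Cells without MAU2 UMIs held somewhat fewer total UMIs, with wide overlap between the classes. Cells without MAU2 UMIs held 44979 to 129793 UMIs (median 81255; 78860 ± 17554, SD, n = 44), and cells with MAU2 UMIs held 61292 to 174807 (median 83731; 89831 ± 22011, SD, n = 33). The ratio of the medians was 0.970, and the ranges overlapped for most cells. The 7 cells below 60000 UMIs were all without MAU2. Cells with 1 MAU2 UMI had a median of 82481 total UMIs and cells with 3 or 4 had a median of 88776. Across the 77 cells, the Spearman correlation of MAU2 with total UMIs was 0.243, beside 0.313 in KO batch 2 and 0.606 and 0.504 in the WT batches. This is a description over cells of 1 library, whose total includes the MAU2 UMIs.

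The cells were also ranked by depth into 3 groups, in which cells without MAU2 were 16 of the 26 shallowest, 16 of the 26 in the middle and 12 of the 25 deepest. The level of MAU2 per 1000000 UMIs was 8.95, 9.79 and 8.80 in the same order. The share of UMIs from MAU2 was thus nearly level across depth. If each cell had the same share of MAU2 UMIs and counts followed a Poisson distribution, 36.4 cells without MAU2 would be counted from the deposited values, and 41.7 with the gap at 2 closed (3 read as 2 and 4 as 3), beside the 44 observed. The ratio of observed to computed cells was 1.21 for MAU2 as deposited. Over 5264 genes with zeros in 25% to 75% of these cells, the same ratio had a median of 1.09 with 5th and 95th percentiles of 0.944 and 1.62, and 71.6% of the genes had a lower ratio than MAU2. MAU2 lay inside the range of genes detected in a like share of cells.

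At 60000 UMIs, 37 cells without and 33 cells with MAU2 UMIs remained. The classes were those set before thinning, at unequal depth, and 24 of the 33 cells still held MAU2 UMIs after it. The number of detected genes and the mitochondrial share lay close together in the classes. The number of detected genes was 7735 to 8091 (median 7886; 7894 ± 96.3, SD, n = 37) without and 7734 to 8264 (median 7900; 7918 ± 108, SD, n = 33) with MAU2 UMIs. Mitochondrially encoded genes, which mark RNA quality, made up a median of 21.0% of UMIs in both classes (20.1% to 22.0% and 19.8% to 22.5%). In a principal component analysis of the thinned cells, the first component held 1.87% of the variance, where equal components would hold 1.45% each. The ranges of the classes overlapped on each of the first 5 components, which full ranges can hardly fail to do on components this small. On component 3, the class medians were -0.18 without and 0.24 with MAU2 UMIs. Over the first 5 components, the strongest Spearman correlation was 0.276 with total UMIs and 0.227 with MAU2 UMIs.

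Genes were then compared one by one. The 2 classes are cells of 1 library and not replicates, so sizes are given and no p-value. At equal depth, 6554 genes reached the minimum mean of 1 UMI per cell. Of these, 9 were at least 2-fold higher in cells without MAU2 UMIs (0.137% of genes) and 7 were at least 2-fold lower (0.107%), or 16 in all (0.244%). The median log2 difference was -0.00 and 93.8% of genes lay within 0.5 of 0 on the log2 scale. Without scaling to the total, the median was -0.19, which goes with the fewer UMIs of the cells without MAU2. Differences past 2-fold were mostly those of low genes: 12 of the 16 had a mean of 1 to 2 UMIs, where the SD of the log2 differences was 0.35, and none of 942 genes with a mean of 5 to 10 was past 2-fold.

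**Figure D2:**
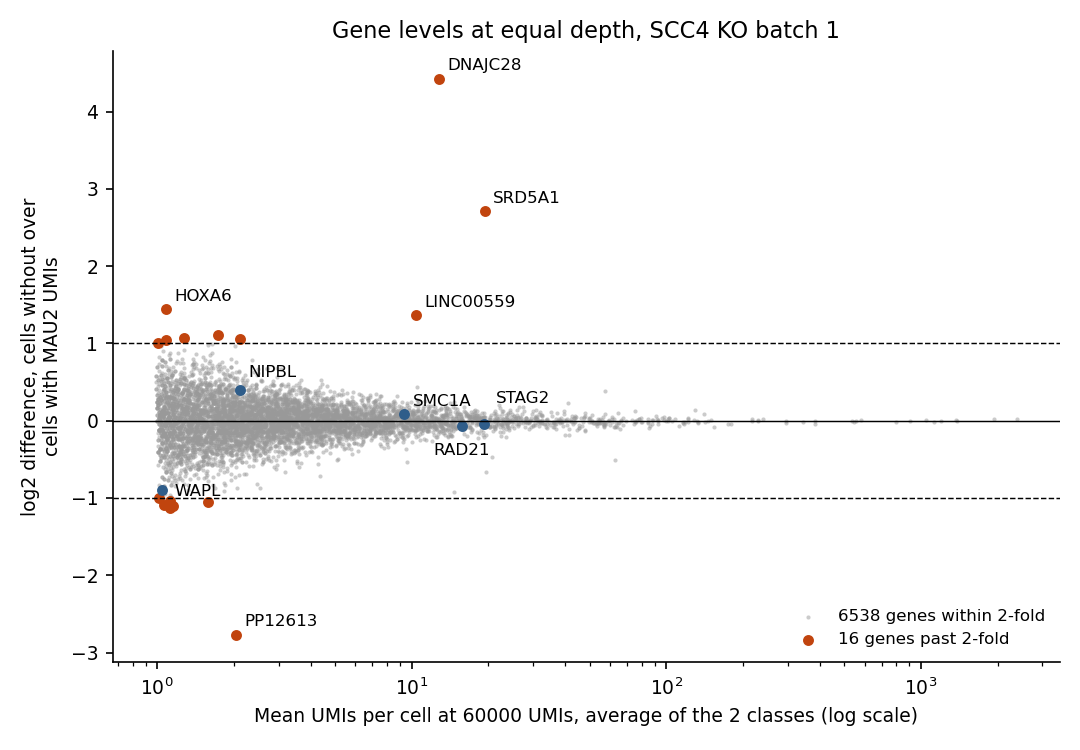
Each point is 1 of 6554 genes, with its mean UMIs per cell at 60000 UMIs (log scale) on the x axis and the log2 difference between cells without and with MAU2 UMIs on the y axis. The 16 orange points lie past the dashed lines at 2-fold, and blue points are cohesin genes, all within them.

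The largest differences came from single cells, which was not so for most of the 16 genes past 2-fold. With the highest cell of each class left out, 11 of the 16 genes were still past 2-fold. This step was chosen after seeing the data, and not all of the 11 genes are named. DNAJC28, SRD5A1, LINC00559 and PP12613 each had over 50% of their UMIs in 1 cell, a different cell for each gene. These 4 genes were singled out after their values were seen. DNAJC28 (ENSG00000177692), which encodes a J-domain protein, had 1310 of its 1404 deposited UMIs in 1 cell without MAU2. All other thinned cells of that class held at most 2, and its log2 difference of 4.43 became -0.49 when the highest cell of each class was left out. SRD5A1 (ENSG00000145545), a steroid 5-alpha-reductase, had 1531 of 2016 UMIs in another cell without MAU2, and its difference of 2.71 became -0.23. In KO batch 2, another cell held 3677 SRD5A1 UMIs. LINC00559 (ENSG00000261446), a long non-coding RNA, had 633 of 1032 UMIs in 1 cell, and its difference of 1.37 became -0.48. PP12613 (ENSG00000226757) had 197 of 367 UMIs in a cell with 1 MAU2 UMI, and its difference of -2.77 became 0.54. The medians of the classes were equal for each of the 4 genes: 4 UMIs for SRD5A1, 1 for DNAJC28, 2 for LINC00559 and 0 for PP12613. These values are far above 1 and were thus among those the adjustment between batches could move, and its part in them was not tested.

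**Figure D3:**
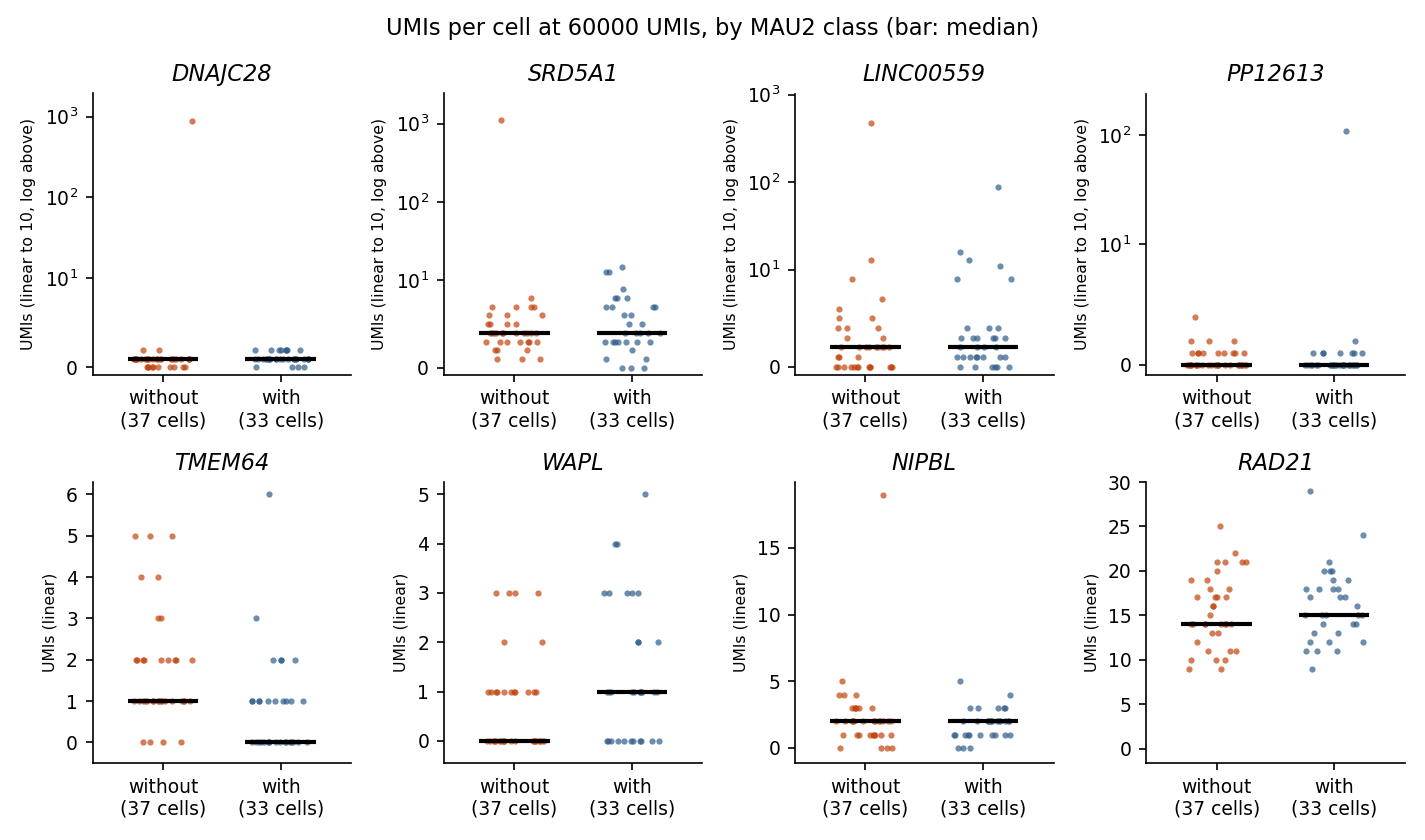
UMIs per cell at 60000 UMIs for 8 genes, with 37 cells without and 33 cells with MAU2 UMIs and a bar at each median. The upper row has an axis that is linear to 10 and log above, with 1 cell far above the rest in each gene (in LINC00559, a cell at 469 and another at 87), and the lower row is linear, with classes that overlap in each gene.

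Of the 16 genes, 6 differed in the same direction in KO batch 2 under the same division (6 against 70 cells), with 1 past 2-fold. Over all 6554 genes, the log2 differences of the batches had a Spearman correlation of 0.00, so this count is no sign of agreement. The share of all genes with the same direction was not computed. The 6 genes are described here. HOXA6, a homeobox transcription factor gene, had 1.59 ± 4.65 UMIs (SD, n = 37) without and 0.58 ± 0.56 (n = 33) with MAU2, but 1 cell without MAU2 held 29 and every other cell at most 2. Its difference of 1.44 became 0.63 without the highest cells, and batch 2 held 1 HOXA6 UMI in all, which is the one difference past 2-fold there. TMEM64, a transmembrane protein gene, was detected in 33 of 37 cells without MAU2 (89.2%; 74.6% to 97.0%) and in 16 of 33 with MAU2 (48.5%; 30.8% to 66.5%). Its means were 1.73 UMIs (exact Poisson 95% interval 1.33 to 2.21, counting error only) and 0.82 (0.54 to 1.19), a log2 difference of 1.06. The same difference was 0.78 in unthinned sums and 0.39 with another random draw, so that its place past 2-fold rested on the draw. In batch 2, TMEM64 differed by 0.21 under the same division. It differed by 0.51 there with classes set by the MAU2 UMIs left after thinning, in the same direction.

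PRELID3A, a gene of the PRELI family of lipid transfer proteins, had 1.46 ± 1.5 and 0.70 ± 1.02 UMIs (1.05), and SHOX2, a homeobox gene, had 1.35 ± 1.59 and 0.67 ± 0.96 (1.0). DTWD1, which encodes a tRNA-modifying enzyme, had 0.73 ± 0.77 and 1.58 ± 1.71 (-1.10). ENSG00000215840, listed without a symbol, had 1.03 ± 0.80 and 2.15 ± 1.40 (-1.06). In each of these genes, the classes overlapped and the SD between cells was larger than or close to the difference of the means. None of the 4 was past 2-fold in the unthinned sums (0.64, 0.72, -0.77 and -0.55).

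Few of the batch 1 genes had the same difference in batch 2. Since nearly every cell of batch 2 had MAU2 UMIs before thinning, its classes were also set by the MAU2 UMIs left at 60000 UMIs, giving 36 cells without and 40 with. Of 6700 genes, 7 were then past 2-fold (0.104%), 4 of them higher (0.0597%) and 3 lower (0.0448%). Under the original division, with 6 cells without MAU2, 248 were past 2-fold (3.70%), 74 of them higher (1.10%) and 174 lower (2.60%). Of the 16 batch 1 genes, 7 kept their direction with the classes set after thinning and 1, SRD5A1, was past 2-fold, in the batch whose cell with 3677 UMIs is given above. Over the 6554 genes, the Spearman correlation between the log2 differences of the batches was 0.00 under the same division and -0.04 with classes set after thinning. Genes are not independent replicates, and the batches share no cells. Within batch 1, cells were also divided at the median total (20 without and 15 with MAU2 below, 17 and 18 at or above). Of the 16 genes, 12 had the same direction in both parts and 2 were past 2-fold in both. The genes were chosen on these same cells, so this count is a description and no sign of stability.

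**Figure D4:**
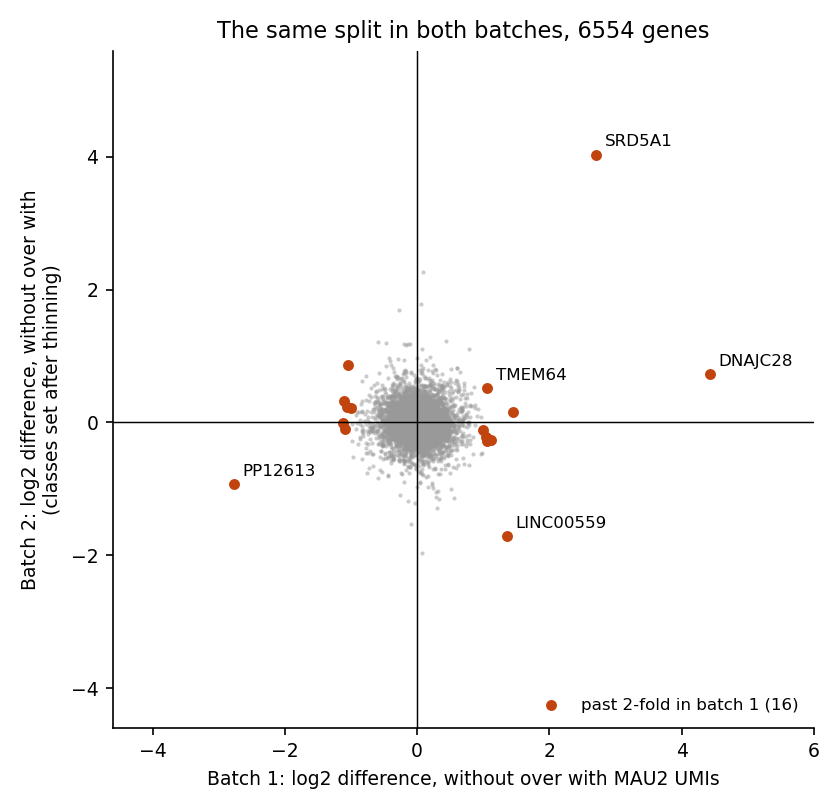
Each point is 1 of 6554 genes, with the log2 difference between cells without and with MAU2 UMIs in KO batch 1 on the x axis and in KO batch 2, with classes set after thinning, on the y axis. The points form a round cloud around 0, and of the 16 orange genes past 2-fold in batch 1, SRD5A1 alone is past 2-fold in the same direction in batch 2.

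Of 15 cohesin genes besides MAU2, 10 reached the minimum mean. None of the 10 was past 2-fold, where 0.244% of all genes were, so that this count is not particular to the list. Their median log2 difference was -0.13 beside -0.00 over all genes, with 2 above and 8 below 0, where 50.2% of all genes were below 0. In batch 2, the median had the opposite sign, at 0.14 under the same division and 0.20 with classes set after thinning. The summed level of the list was 42 to 83 UMIs per cell (median 60) without and 48 to 78 (median 65) with MAU2.

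The partner NIPBL, the other subunit of the loader, had 2.41 ± 3.05 UMIs (SD, n = 37) without and 1.82 ± 1.10 (n = 33) with MAU2 UMIs, with a median of 2 in both classes. One cell without MAU2 held 19 NIPBL UMIs and every other cell at most 5. The log2 difference of 0.40 became 0.18 without the highest cells and was 0.07 in unthinned sums. In the random draw used, the ring subunits lay close to 0. Their log2 differences were 0.09 for SMC1A, -0.03 for SMC3, -0.06 for RAD21 and -0.04 for STAG2. RAD21, for example, had 15.4 ± 4.08 UMIs without and 16.1 ± 4.14 with MAU2. The value of SMC3 depended on the draw, with -0.32 in another random draw and -0.23 in unthinned sums. In batch 2, SMC3 had the opposite sign, at 0.06 under the same division and 0.25 with classes set after thinning.

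WAPL, a release factor, had 0.73 ± 0.99 UMIs (Poisson interval of the mean 0.48 to 1.06) without and 1.36 ± 1.41 (0.995 to 1.83) with MAU2. It was detected in 17 of 37 cells (45.9%; 29.5% to 63.1%) and 22 of 33 (66.7%; 48.2% to 82.0%). The log2 difference was -0.89, and -0.75 in unthinned sums. In batch 2, WAPL was 0.31 under the same division and -0.33 with classes set after thinning. PDS5A had 3.03 ± 1.72 and 3.97 ± 1.98 UMIs. Its log2 difference was -0.39, but -0.10 in unthinned sums and 0 with cells thinned to 71000 UMIs. In batch 2, PDS5A was -0.03 under the same division and 0.14 with classes set after thinning. The border factor CTCF was at -0.22, CDCA5, which protects bound cohesin, at -0.24 and the SMC3 deacetylase HDAC8 at -0.20, which became 0.11 with another random draw. In batch 2, these 3 genes were at -0.28, 0.21 and 0.21 under the same division and at 0.39, 0.26 and 0.48 with classes set after thinning. PDS5B, STAG1, ESCO1, ESCO2 and SGO1 did not reach the minimum mean. PDS5B had 0.51 and 1.03 UMIs, and the others had means below 1 UMI in both classes.

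Other cell states were read from 15 further lists. No member that reached the minimum mean was past 2-fold, which at 0.244% of all genes is not particular to the lists, so they are described by their medians. The cell cycle lists had medians near 0. Genes of S phase and DNA replication had a median log2 difference of 0.03 (19 genes, 11 above and 8 below 0). MCM3, a subunit of the replicative helicase, was at 0.34 and POLD3 at -0.36. In batch 2, they were at -0.42 and -0.16 under the same division and at 0.01 and -0.20 with classes set after thinning. Genes of G2 and mitosis had a median of 0.00 (18 genes, 9 and 9), with CDC20, which activates the anaphase-promoting complex, at -0.45 and CCNA2, a cyclin, at 0.32. Their summed level was 54 to 121 UMIs (median 83) without and 59 to 105 (median 81) with MAU2. Genes of G1 cyclins and RB had a median of 0.06 (9 genes), with the kinase CDK6 at 0.47.

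Nonsense-mediated decay, which can remove edited transcripts, had a median of 0.03 (10 genes, 5 and 5). UPF2, a core factor of the pathway, was at -0.84, with 0.76 and 1.36 UMIs, and CASC3, a part of the exon junction complex, was at 0.40. In batch 2, UPF2 and CASC3 were at -0.00 and -0.90 under the same division and at -0.55 and -0.25 with classes set after thinning. Condensin and SMC5/6 genes, which build the other SMC complexes, had a median of 0.01 (8 genes).

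ATF4 stress response genes had a median of -0.14 (10 genes, 2 above and 8 below 0), with the cystine transporter SLC7A11 at -0.52. In batch 2, this median was 0.00 under the same division and 0.03 with classes set after thinning. The median was -0.03 for p53 targets (9 genes), with the death receptor TNFRSF10B at 0.50 and PMAIP1 at -0.47. It was 0.07 for immediate-early genes and MYC (9 genes), with JUNB at -0.49, and -0.00 for heat-shock chaperones (12 genes), with DNAJB1 at -0.32.

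Mitochondrially encoded genes had a median of 0.00, and each of the 13 lay between -0.04 and 0.02. Cytosolic ribosomal protein genes had a median of 0.01 (37 genes, -0.09 to 0.16), with RPL5 at 0.16. In batch 2, RPL5 was at -0.30 under the same division and at -0.14 with classes set after thinning. Medians were -0.02 for glycolysis (15 genes, -0.25 to 0.31) and 0.01 for the proteasome (24 genes, -0.32 to 0.47). Of the markers of other cell types, haematopoietic genes summed to a median of 0 and at most 2 UMIs per cell in both classes, with 3 of 8 genes listed and none reaching the minimum mean. In the list of epithelial and mesenchymal genes, VIM (5.70 and 7.0 UMIs, -0.30) and CDH2 (3.30 and 3.55, -0.10) reached it. CDH2 was at 0.05 with another random draw. In batch 2, VIM and CDH2 had the opposite sign, at 0.51 and 0.48 under the same division. They were at 0.12 and 0.05 there with classes set after thinning.

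**Figure D5:**
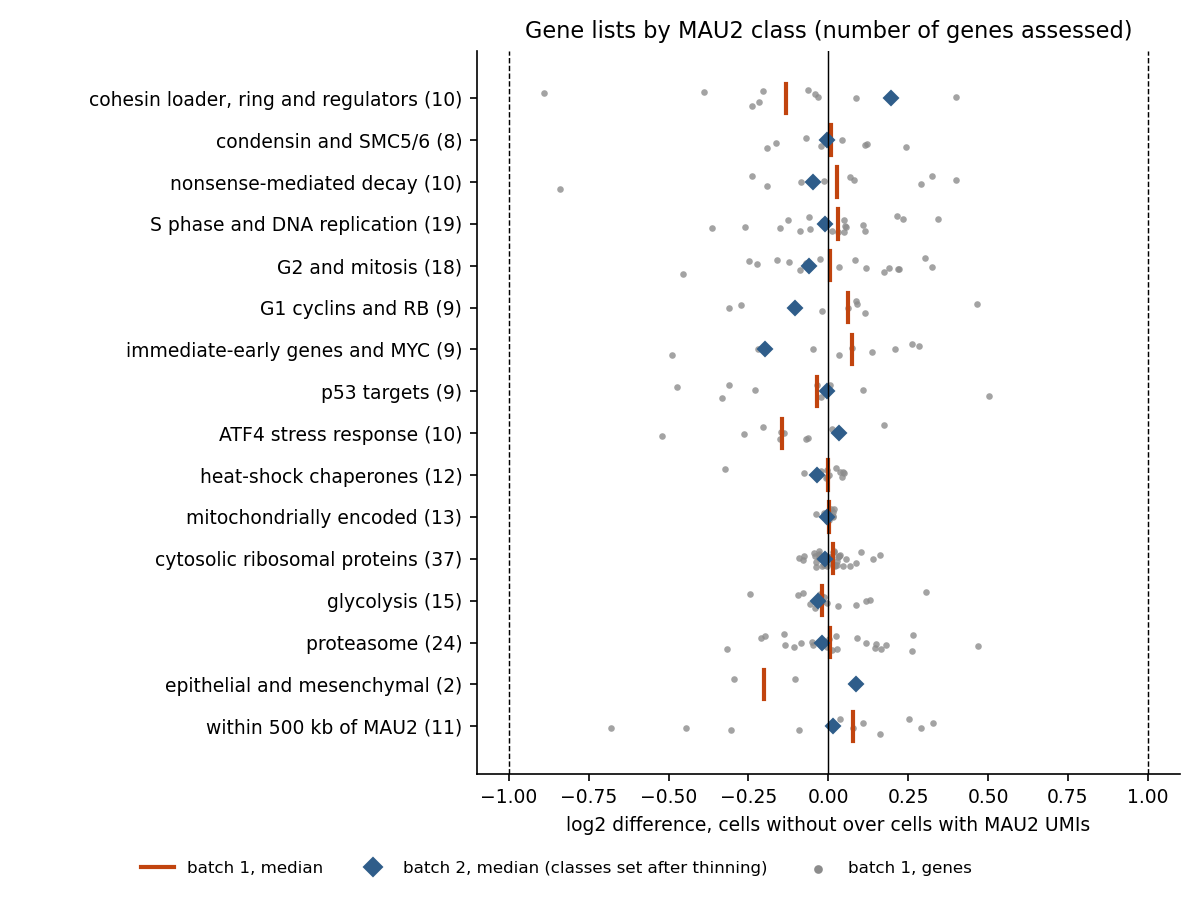
Grey points are the log2 differences, cells without over cells with MAU2 UMIs, of the assessed genes of each list in KO batch 1, orange bars their medians and blue diamonds the medians in KO batch 2 with classes set after thinning. Each median lies within 0.25 of 0 and each gene inside the dashed lines at 2-fold.

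Within 500 kb of MAU2 on chromosome 19 lay 57 annotated genes, of which 24 were listed and 11 reached the minimum mean. Their log2 differences went both ways, with a median of 0.08 (7 above and 4 below 0), from -0.68 for the ATPase gene ATP13A1 (0.86 and 1.39 UMIs) to 0.33 for GATAD2A, a gene of a chromatin remodelling complex. The adjacent gene SUGP1, which encodes a splicing factor, was at -0.45, at -0.64 in unthinned sums and at -1.20 with cells thinned to 71000 UMIs. In batch 2, SUGP1 was at 1.09 under the same division and at 0.24 with classes set after thinning.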

How the data were processed

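LAST-seq UMIs per gene of eHAP1 WT and SCC4 KO cells were analysed. The authors aligned reads to GRCh38, counted UMIs, removed empty or contaminated wells and named ComBat-seq for the batches. The deposited eHAP1 values are whole numbers with gaps that the raw UMIs of HEK293T cells lack, and were treated as a score, so that no count model was run. This differs from the unit assumed when the tests were chosen. HEK293T LAST-seq values, deposited as UMI counts, served only to check the gaps: entries of 2 were 1.82 and 1.86 times as many as entries of 3 there, against 0.653 in KO batch 1.

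Cells were thinned to 60000 UMIs, the 10th percentile of KO batch 1 rounded down to a multiple of 1000. Log2 ratios of class means used 0.5 UMI added to each class sum, a minimum mean of 1 UMI per cell and a 2-fold threshold. No test was made, since cells are not replicates. Shares have exact binomial and means exact Poisson 95% intervals, which cover counting error only. The Poisson intervals and the Poisson number of cells without MAU2 read the adjusted values as counts, which values above 1 need not be. The code was tested on simulated data. Named genes were MAU2, the cohesin list, the genes past 2-fold that had the same direction in batch 2 and in unthinned sums, and the most different members of each other list. Members and lists were chosen with earlier results of these data known. Symbols matched 99.7% of the 20769 gene IDs. The guide was placed on GRCh38 with a later annotation than that of the authors. Python 3.11.15, numpy 2.4.6, scipy 1.17.1 and pandas 2.3.3 were used.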

Additional observations from a re-analysis of the deposited data

How the results depend on the processing

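Counts of genes at least 2-fold higher and lower without MAU2 UMIs were 9 and 7. They were 13 and 17 with cells thinned to 71000 UMIs, 3 and 2 with scaled sums, 3 and 0 with mean UMIs per 1000000, 7 and 8 with another random draw, 11 and 6 with median-of-ratios factors, and 5 and 2 with a pseudocount of 5. With a second class of cells with 2 or more MAU2 UMIs (37 against 11 cells) they were 80 and 31, and 20 and 3 with classes set after thinning (46 against 24). Cells below the median total gave 66 and 48, cells at or above it 44 and 60, and batch 2 gave 74 and 174. A minimum mean of 5 gave 3 and 0, and no minimum gave 2716 and 2443. The share of cells without MAU2 UMIs was 7.89% in batch 2. Chosen after seeing the data were leaving out the highest cell of each class (9 and 10), no scaling (3 and 9) and batch 2 with classes set after thinning (4 and 3).

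PP12613 reversed to 0.18 with mean UMIs per 1000000, 0.37 with 2 or more MAU2 UMIs, 3.18 with classes set after thinning, 0.64 below the median total, 0.61 in batch 2 and 0.54 without the highest cells. DNAJC28 reversed to -0.60 below the median total, -3.49 in batch 2 and -0.49 without the highest cells. SRD5A1 reversed to -0.30 at or above the median total, -3.61 in batch 2 and -0.23 without the highest cells. LINC00559 reversed to -1.53 at or above the median total, -2.83 in batch 2, -0.48 without the highest cells and -1.72 in batch 2 with classes set after thinning. The last setting also reversed PRELID3A (-0.22), SHOX2 (-0.12), DTWD1 (0.32) and ENSG00000215840 (0.23). Beyond 1 cell holding most UMIs of the first 4 genes, and the left-out cell with 127 PP12613 UMIs, the cause was not tested.

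The edgeR fits planned on sums per batch and class, with and without the replicate block, were not run, since the deposited values are not raw counts. In their place, and chosen after seeing the data, the batch was used as a replicate block with no test, by the mean of the log2 differences within batches 1 and 2 over 6217 genes. This gave 1 gene higher and 19 lower under the same division, and 1 and 0 with batch 2 classes set after thinning. SRD5A1 reversed to -0.45 in the former, and LINC00559 to -0.73 and -0.17. Genes below 1 UMI per cell cannot be judged at 60000 UMIs and 33 to 37 cells a class.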
